A study of Mus musculus with 3 samples.

Results

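The genes described here are 9 members of the switch by which the microRNAs (miRNAs) miR-124 and miR-9 turn progenitor cells toward the neuronal state: Rest, Rcor1, Ctdsp1, Ctdsp2, Ctdspl, Ptbp1, Ptbp2, Actl6a and Sox9. They were picked by name for their known roles, with earlier results of these data known, out of 21028 genes that code for protein and have a 3′UTR in the annotation. All 9 were found in the annotation, and all are kept in every count. Argonaute 2 (Ago2), the protein that carries miRNAs and the transcripts they pair with, was located by HITS‐clip in a mouse neuroblastoma line, N2A. The cells were untreated (basal), crosslinked with ultraviolet light 1 time at 400 and afterwards 2 times at 200 mJ/cm2, and immunoprecipitated with the anti-Ago2 clone 2D4. The 3 samples form 1 group, replicates 1 to 3, and no second condition or library without antibody was analysed here.

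Rest is a zinc-finger repressor that silences neuronal genes outside neurons, and it works through corepressors such as Rcor1 (CoREST) and the small phosphatases Ctdsp1, Ctdsp2 and Ctdspl. The genes for miR-124 and miR-9 are themselves repressed by Rest, and both miRNAs are known to act back on this machinery. In the same transition Ptbp1, which blocks the splicing of neuronal exons, gives way to its paralogue Ptbp2, the BAF subunit Actl6a gives way to its neuronal counterpart, and the progenitor and glial transcription factor Sox9 is turned down. The introns of the Ctdsp genes hold the hairpins of the miR-26 family.

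A miRNA finds its sites mainly through its seed, bases 2 to 8. The mature sequences below, from RefSeq on GRCm38.p6, are those of miR-9 and of the miR-26 family, with the seed in capitals, and miR-26a-5p and miR-26b-5p share 1 seed. Sites were found in the transcript strand as the letters ACCAAAG for miR-9-5p, AGCTTTA for miR-9-3p, TACTTGA for miR-26-5p and GTGCCTT for miR-124-3p, whose mature sequence is not printed.
miR-9-5p: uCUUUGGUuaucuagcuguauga
miR-9-3p: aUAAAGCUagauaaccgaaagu
miR-26a-5p: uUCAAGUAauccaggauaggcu
miR-26b-5p: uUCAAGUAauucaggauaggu

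The sites that the results turn on are printed next as the transcript reads, 5′ to 3′, with at most 30 bases of the 3′UTR, the matched bases and the A after them in capitals, and positions on GRCm38 counted from 1. An A after a 7-base match makes an 8mer, and a match to bases 2 to 7 followed by an A is a 7mer-A1. The Ptbp1 and Ptbp2 8mers are the only 8mers of miR-124-3p among the members. The Ptbp2 pair puts a miR-9-5p and a miR-124-3p match side by side. Among the matches to bases 2 to 8 of miR-124-3p, those of Rcor1 and Sox9 lay under peaks in the most libraries. The Rest sites lay under peaks in all 3 libraries, and the Actl6a site is the match of that gene to bases 2 to 8 of miR-9-3p.
Ptbp1, miR-124-3p 8mer, chr10:79863510-79863539, plus strand: gccccaaacatagccgctttctGTGCCTTA
Ptbp2, miR-124-3p 8mer, chr3:119720068-119720097, minus strand: ttttccaacttagttgacatacGTGCCTTA
Ptbp2, miR-9-5p and miR-124-3p, chr3:119719323-119719351, minus strand: gtgggACCAAAGtttatGTGCCTTtagtc
Rcor1, miR-124-3p 7mer-m8, chr12:111112751-111112780, plus strand: ggtgcttgtacatttggaattgGTGCCTTc
Sox9, miR-124-3p 7mer-m8, chr11:112786502-112786531, plus strand: tgctgttcctagaacattcactGTGCCTTt
Rest, miR-26-5p 8mer, chr5:77283311-77283340, plus strand: gataaaaattggcttagtaaatTACTTGAA
Rest, miR-9-5p 7mer-A1, chr5:77284723-77284752, plus strand: tgaacttggaattgactgggaggCCAAAGA
Actl6a, miR-9-3p 7mer-m8, chr3:32726618-32726647, plus strand: tgcccgtcacctcaacgtctgtAGCTTTAg

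The deposited table listed 711377, 498071 and 829936 peaks for replicates 1, 2 and 3. It holds intervals and no read counts, so read depth is unknown, and where no peak is listed Ago2 may still have been bound. Of each pair of libraries, 0.891% to 1.57% of the peaks of the smaller one had an identical interval in the other, so no library repeats another. The labels do not say that the samples came from separate cultures, so the spread between them may be technical. More Ago2 per transcript, more RNA per cell and more cells with that RNA cannot be told apart here. Of 10 neuronal marker genes, 7 had an exon peak in all 3 libraries, against 42.8% of 21938 protein-coding genes. Among the others, Nefl had one in replicate 2 and Nefm in replicates 1 and 2. Single markers of other cell types also had exon peaks in all 3 libraries, namely 1 of 4 myeloid (Ptprc) and 1 of 3 astrocyte markers (Aqp4) and the oligodendrocyte marker Mbp, and 0 of 3 hepatocyte and 0 of 3 muscle markers did. The part of other cells in the results was not tested.

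Peaks on the strand of the 9 genes numbered 195, 265 and 629 in replicates 1, 2 and 3, so the library with the most peaks, replicate 3, also held the most of them, and replicate 2 held more than replicate 1 although it lists fewer peaks in all. On the opposite strand of the same genes there were 45, 29 and 32 peaks. The ratio of same to opposite strand was 4.33, 9.14 and 19.7 for the members (11.04 ± 7.84, SD, n = 3) and 1.84, 2.87 and 3.81 over all genes (2.84 ± 0.981, SD, n = 3). The ratio was higher for the members in each library, and of their same-strand peaks 111, 119 and 365 belonged to Ptbp2.

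By transcript part, 25, 94 and 104 of the member peaks fell by their midpoint in a 3′UTR, 7, 23 and 39 in coding sequence and 163, 146 and 486 in an intron. Only 2 lay in a 5′UTR, both in replicate 2, 1 in Ctdsp2 and 1 in Ptbp2. The share of 3′UTR peaks was 12.8%, 35.5% and 16.5% in replicates 1, 2 and 3, with Wilson intervals from 8.84% to 18.2%, from 29.96% to 41.4% and from 13.8% to 19.6%. It averaged 21.6% ± 12.1 (SD, n = 3), and over all genes the share was 7.52%, 25.2% and 13.2%. Replicate 2 had the highest share in both sets, and the intervals, which cover the counting of peaks only, set replicate 2 apart from the others. Introns took 71.98% ± 14.96 of the member peaks and 73.6% ± 14.2 of the peaks over all genes (SD, n = 3). Without Ptbp2 the 3′UTR share of the other 8 genes was 22.6%, 56.2% and 31.8%, a mean of 36.9% ± 17.3 (SD, n = 3).

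All 9 genes had a 3′UTR peak in at least 1 library, whereas 38.1% of all genes had one in no library. By replicate, 6, 8 and 9 members had one, against 34.8%, 44.7% and 48.4% of all genes. Rest, Rcor1, Ctdsp2, Ptbp2, Actl6a and Sox9, 6 of the members, had such a peak in each of the 3 libraries, as did 23.9% of all genes. Long 3′UTRs are met by peaks more often. With all genes put in 5 equal classes of 3′UTR length, from short to long, this share was 2.87%, 10.8%, 20.9%, 33.8% and 51.0%. Of the members, 4 were in class 5 (Rest, Rcor1, Ctdsp2 and Ctdspl), 4 in class 4 (Ctdsp1, Ptbp1, Ptbp2 and Sox9) and 1 in class 2 (Actl6a). On the opposite strand 1 member (Rest) and 2.63% of all genes met the same condition. With equal numbers of peaks drawn from each library, 3 members and 19% of all genes met it.

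**Figure D1:**
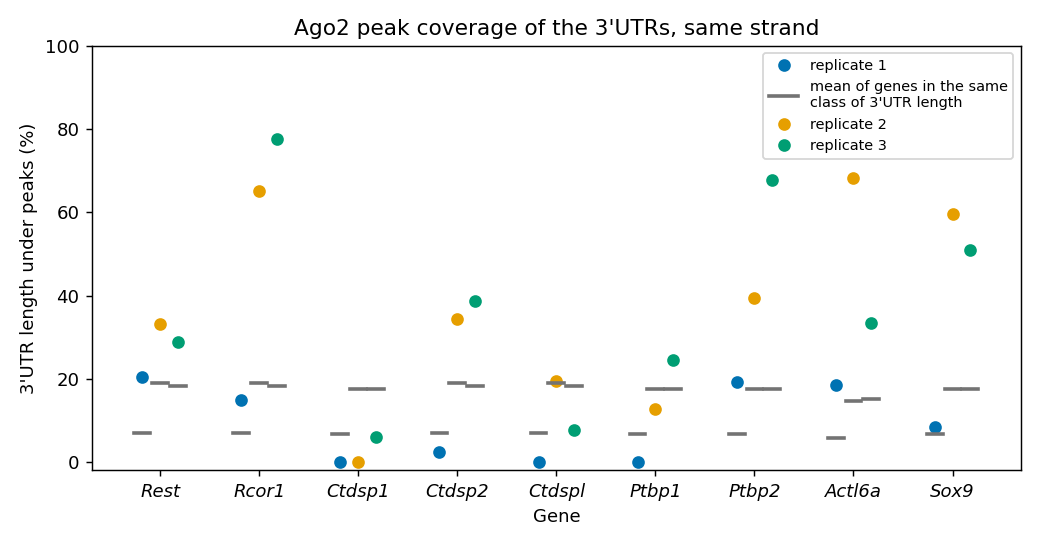
Share of each member's longest 3′UTR under same-strand Ago2 peaks (percent, y axis) for the 9 genes (x axis), 1 point per replicate. Grey dashes give the mean of all genes in the same class of 3′UTR length for that replicate. Rcor1 reaches 77.7% in replicate 3, and Ctdsp1 lies below its dashes in every replicate.

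Rest lies on chr5:77265491-77286432, plus strand, with a 3′UTR of 3448 nt. Peaks covered 20.3%, 33.2% and 28.8% of it in replicates 1, 2 and 3 (27.4% ± 6.54, SD, n = 3), where the means of its length class were 6.97%, 18.9% and 18.3%. Rest was the member whose coverage varied least in proportion to its mean, and all its values lay above those of the class. Nearly all of its peaks were exonic, with 8, 14 and 11 in the 3′UTR, 1, 4 and 3 in coding sequence and 1, 0 and 4 in introns. On the opposite strand the 3′UTR carried peaks over 176, 88 and 1663 nt, the last of these from a long peak.

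Rcor1 (chr12:111039351-111115901, plus strand) encodes the scaffold that holds a histone demethylase and deacetylases at Rest. Its 3′UTR of 3986 nt was covered to 14.9%, 65.1% and 77.7% (52.6% ± 33.2, SD, n = 3), the highest mean of the 9 genes. Coverage in replicates 2 and 3 was far above replicate 1, and all values exceeded the means of the class. Peaks in the 3′UTR numbered 7, 31 and 40, those in coding sequence 1, 3 and 9, and those in introns 21, 20 and 90.

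The phosphatase genes, whose products are recruited by Rest and dephosphorylate RNA polymerase II, differed among themselves. Ctdsp2 (chr10:126978717-126999975, plus strand, 3′UTR of 3489 nt) was covered to 2.35%, 34.5% and 38.8% (25.2% ± 19.9, SD, n = 3). Ctdspl (chr9:118926453-119043998, plus strand, 3349 nt) had values of 0%, 19.5% and 7.55% (9.03% ± 9.85, SD, n = 3), and its mean was 0.876% with peaks of 86 to 200 nt only. Ctdsp1 (chr1:74391509-74397285, plus strand, 1701 nt) had no 3′UTR peak in replicates 1 and 2 and 1 peak over 102 nt in replicate 3. Replicate 1 was thus at or near 0 for all of them. Ctdsp2 lay above the means of its length class in replicates 2 and 3, Ctdspl just above in replicate 2 and Ctdsp1 in no replicate. Ctdspl had more intron peaks (18, 15 and 21) than 3′UTR peaks (0, 3 and 1), and on its opposite strand 17, 6 and 6 peaks were listed.

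The polypyrimidine tract binding proteins also differed. Ptbp1 (chr10:79854427-79864771, plus strand) had a 3′UTR of 1494 nt covered to 0%, 12.7% and 24.6% (12.4% ± 12.3, SD, n = 3). Its neuronal paralogue Ptbp2 (chr3:119718742-119784466, minus strand, 1586 nt) had 19.2%, 39.5% and 67.7% (42.1% ± 24.4, SD, n = 3). Ptbp2 was covered more than Ptbp1 in each library, although the ranges of the genes over libraries overlap. In coding sequence the counts were 1, 6 and 10 peaks for Ptbp1 and 3, 4 and 14 for Ptbp2.

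Actl6a (chr3:32706298-32726973, plus strand), a subunit of the BAF chromatin remodelling complex of progenitors, has the shortest 3′UTR of the set, 371 nt. Peaks covered 18.6%, 68.2% and 33.4% of it (40.1% ± 25.5, SD, n = 3), each above the 5.74%, 14.7% and 15.2% of its class. Sox9 (chr11:112782224-112787760, plus strand) had 8.4%, 59.5% and 50.8% of its 2250 nt covered (39.6% ± 27.4, SD, n = 3). Again replicate 1 was the lowest for both genes. Summed over the 9 genes, 8.95%, 36.9% and 39.2% of 21674 nt of 3′UTR lay under peaks, against 6.64%, 17.6% and 17.5% of all annotated 3′UTR.

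**Figure D2:**
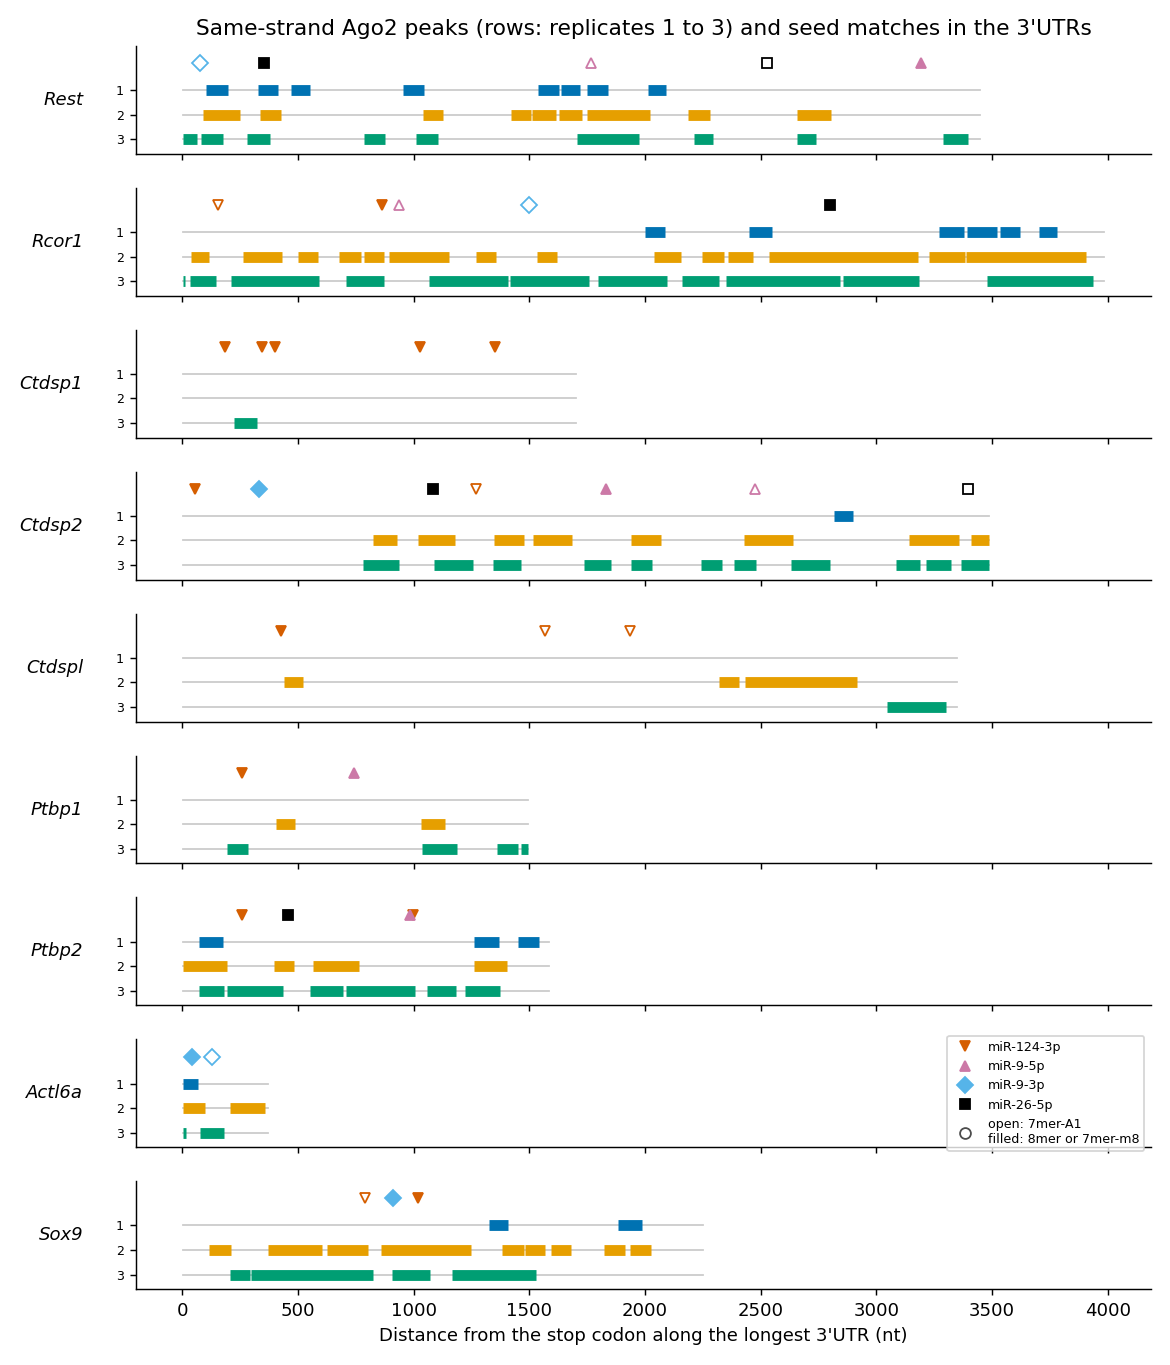
Same-strand peaks along the longest 3′UTR of each member (x axis, distance from the stop codon in nt), 1 row per replicate, with seed matches above (filled, 8mer or 7mer-m8; open, 7mer-A1). Ctdsp1 carries 5 filled miR-124-3p matches and 1 peak, in replicate 3, and no filled miR-124-3p match lies under a peak in all 3 replicates.

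Stretches of 8 nt or more under peaks of every library, called common regions, were found in 5 of the 9 3′UTRs and in 14.3% of all genes. The members had 14 of them, with a median of 47.5 nt and a range of 14 to 106 nt, and over all genes the 7840 regions had a median of 69 nt. Rcor1 had 6 (293 nt in all), Rest 4 (77, 44, 15 and 90 nt), Ptbp2 2 (209 nt), and Actl6a and Sox9 1 each (17 and 28 nt). Ctdsp1, Ctdsp2, Ctdspl and Ptbp1 had none, so the Ctdsp2 peaks of the 3 libraries had no such stretch in common. The longest, 106 nt of Ptbp2, began 1263 nt after the stop codon. Over the member 3′UTRs together 3.58% of the length was covered in all 3 libraries, against 1.77% of all annotated 3′UTR.

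Of these 14 regions, 3 held a match to 1 of 15 seeds searched, as did 18.7% of the 7840 regions over all genes. Rest had the miR-26-5p 8mer and the miR-9-5p 7mer-A1 printed above, in the regions 334 to 377 and 1749 to 1838 nt after the stop codon, and Rcor1 a miR-153-3p match in the region from 3477 to 3521 nt. None of the 14 held a match to bases 2 to 8 of miR-124-3p or miR-9-5p.

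The comparison the switch calls for is which miR-124-3p matches lay under Ago2 peaks. The member 3′UTRs held 12 matches to bases 2 to 8 in 7 genes, and Rest and Actl6a held none. Under a peak lay 0, 2 and 5 of them in replicates 1, 2 and 3, against 6.19%, 19.1% and 19% of such matches over all genes. At least 1 library covered 5 of the 12, against 31.3% of the 3180 over all genes, and all 3 libraries covered 0 of the 12, against 1.76%. Too few matches were available to show a share as low as 1.76%.

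Ptbp1 is a well-known target of miR-124. It and Ptbp2 each have 1 miR-124-3p 8mer, 255 and 253 nt after the stop codon. Both 8mers lay under a peak in replicate 3 and in no other library. Over all genes 36.6% of 582 miR-124-3p 8mers lay under a peak in at least 1 library and 1.2% in all 3. The 30-base windows printed above have 17 identical bases and, in the 22 bases before the match, 9. When peaks were trimmed by 30 nt on each side, the padding assumed for them, the Ptbp2 8mer stayed under the peak of replicate 3 and the Ptbp1 8mer did not.

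Ptbp2 held a further miR-124-3p match 994 nt after the stop codon, and its only miR-9-5p match began 982 nt after it, 5 nt upstream of the first. Both lay under the same peak of replicate 3, and neither under a peak of replicates 1 or 2. With trimmed peaks neither was covered in any library. This pair was picked out after its position was seen.

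Rcor1 and Sox9 had 1 match to bases 2 to 8 of miR-124-3p each, 858 and 1014 nt after the stop codon. Both lay under peaks in replicates 2 and 3 and not in replicate 1. Neither of these remained under a peak once peaks were trimmed. Of 5 miR-124-3p 7mer-A1 matches in the members, 1 lay under a peak, against 33.4% of 2161 over all genes in at least 1 library. It was in Sox9 at 788 nt, covered in replicates 2 and 3 and, with trimmed peaks, in replicate 3. The phosphatase matches to bases 2 to 8 were all outside peaks, 5 in Ctdsp1 (180, 340, 397, 1026 and 1347 nt after the stop codon), 1 in Ctdsp2 (50 nt) and 1 in Ctdspl (423 nt). Ctdsp1 therefore had the most such matches of any member and the lowest 3′UTR coverage.

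For miR-9-5p, 4 matches to bases 2 to 8 were found, 1 each in Rest, Ctdsp2, Ptbp1 and Ptbp2. Those of Ctdsp2 (1829 nt after the stop codon) and Ptbp2 lay under a peak in replicate 3, and those of Rest (3192 nt) and Ptbp1 (740 nt) under none. With trimmed peaks none of the 4 was covered in any library. By replicate that is 0, 0 and 2 of 4, where all genes had 7.09%, 16.9% and 17.8%. It is 2 of 4 in at least 1 library, against 30.3% of 3046 matches over all genes, and 0 of 4 in all 3 libraries, against 1.51%. The weaker 7mer-A1 form occurred at 3 places, each under a peak somewhere: Rest at 1762 nt in all 3 libraries, Ctdsp2 at 2474 nt in replicates 2 and 3, and Rcor1 at 932 nt in replicate 2. Over all genes 1.07% of the 2529 miR-9-5p 7mer-A1 matches lay under a peak in all 3 libraries. Their share in at least 1 library was not computed, so the 3 matches covered somewhere cannot be set beside it. With trimmed peaks the 7mer-A1 of Rest was covered in replicate 3 only, and those of Ctdsp2 and Rcor1 in replicate 2 only.

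The other strand of the miR-9 hairpin, miR-9-3p, is known for acting on Actl6a. Its match to bases 2 to 8 there, 38 nt after the stop codon, lay under peaks in replicates 1 and 2, and with trimmed peaks in replicate 2. Of the other matches to bases 2 to 8, Sox9 at 908 nt was covered in replicates 2 and 3, though by no trimmed peak, and Ctdsp2 at 327 nt in none. Over all genes 8.67%, 20.9% and 20.7% of 2861 miR-9-3p matches lay under a peak in replicates 1, 2 and 3, 33.6% in at least 1 of them and 2.83% in all 3. Actl6a also had a 7mer-A1 of miR-9-3p at 127 nt, under a peak of replicate 3, also when trimmed. In all, 2 of 3 such 7mer-A1 matches of the members lay under a peak in at least 1 library, that of Actl6a and that of Rcor1 at 1495 nt, against 34.6% of 1975 over all genes. In the coding sequences of the 9 genes, 0 matches to bases 2 to 8 of miR-124-3p or miR-9-5p were found.

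The miR-26 family is encoded in the Ctdsp introns. All 4 member matches to bases 2 to 8 of miR-26-5p lay under a peak in at least 1 library, against 35.8% of 2326 over all genes, and 1, 4 and 2 of them in replicates 1, 2 and 3, against 10.2%, 23.4% and 22.2%. In all 3 libraries 1 of the 4 did, and 3.22% over all genes. That match is the Rest 8mer at 349 nt, and 4.4% of 932 miR-26-5p 8mers over all genes were covered so. The Rcor1 8mer at 2796 nt was covered in replicates 2 and 3, and the 7mer-m8 matches of Ctdsp2 (1080 nt) and Ptbp2 (453 nt) in replicate 2. The Rest 8mer lay at the edges of its peaks, since it was under no trimmed peak in any library. The Rcor1 8mer remained under trimmed peaks in both of its libraries and the Ctdsp2 match in its 1, whereas the Ptbp2 match did not. Of the 2 miR-26-5p 7mer-A1 matches of the members, that of Ctdsp2 at 3395 nt lay under a peak of replicate 3, though under no trimmed peak, and that of Rest at 2525 nt under none, against 35.7% of 2678 over all genes in at least 1 library.

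The hairpins of the family differed from each other. Mir26b, in an intron of Ctdsp1 (chr1:74394310-74394394, plus strand), had a same-strand peak in all 3 libraries, which 8.4% of 2202 annotated miRNA hairpins had. Mir26a-1 in Ctdspl (chr9:119031796-119031885, plus strand) had none in any library, and Mir26a-2 in Ctdsp2 (chr10:126995530-126995613, plus strand) had none on its strand and 1 library, replicate 1, on the opposite strand. The mature miR-26a-5p printed above is the same at both of its loci, and how reads that fit several loci were treated is not given in the sources used here.

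The narrow peaks over Mir26b lay on the miR-26b-5p arm in replicates 1 and 3 and on the miR-26b-3p arm in replicate 2. Without the outer 30 nt, that of replicate 1 spanned 74394317 to 74394354 and that of replicate 3 spanned 74394318 to 74394355, and each held all 21 nt of miR-26b-5p. In replicate 2 the arm lay only under a peak of 2290 nt, and a narrow peak, 74394360 to 74394390 without its outer parts, held all 22 nt of miR-26b-3p. In replicate 3 the miR-26b-3p arm lay under a peak of 935 nt. The introns of Ctdsp1, with 2, 2 and 3 peak midpoints, held 1 region covered in all 3 libraries, of 97 nt and over this hairpin, and its 3′UTR held none.

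**Figure D3:**
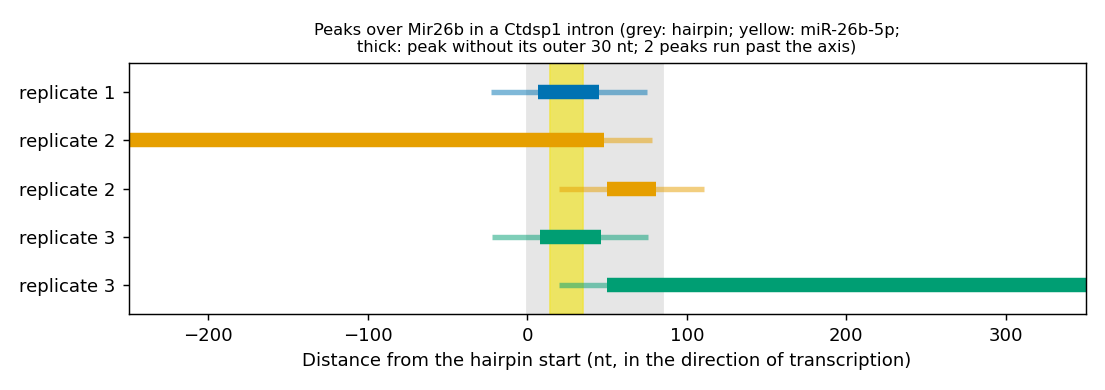
Peaks over the Mir26b hairpin (grey) on the plus strand, by replicate, against distance from the hairpin start in nt; thick bars are peaks without their outer 30 nt and the yellow band is miR-26b-5p. The narrow peaks of replicates 1 and 3 lie over the band, and the peaks of 2290 nt and 935 nt run past the axis.

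The hairpins of the switch miRNAs themselves were set beside all annotated hairpins. Mir124a-1, Mir124a-2, Mir124a-3, Mir9-1 and Mir9-2 had no same-strand peak in any library. Mir9-3 had 1, in replicate 1, and that peak was 3335 nt wide. In replicates 1, 2 and 3, 14.9%, 23.4% and 24.1% of all hairpins had a peak. The switch hairpins are too few to show a lack of peaks against such shares. The loci of miR-9 also share their mature sequences, and miRNA levels were not measured in these files.

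Ptbp2 stood apart in its introns. It had 102, 102 and 331 same-strand intron peaks in replicates 1, 2 and 3, out of 163, 146 and 486 over the 9 genes. Per 10000 nt of intron that is 17.0, 17.0 and 55.03 peaks, and on the opposite strand 0.998, 1.496 and 0.998. Replicate 3 was the highest on the same strand, and no library was high on the opposite one. Among 12480 genes with at least 10000 nt of intron, a minimum set after the values were seen, the median was 1.72, 1.08 and 1.89 and the 99th percentile 9.28, 8.62 and 35.9. Ptbp2 ranked 10, 14 and 26 in the 3 libraries and 5 by its lowest library. The genes placed above it by that measure were Racgap1, Prpf39, Gm28285 and Matr3, and those just after it Mrps6, Tial1 and Hnrnpd. These genes were named after their values were seen.

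The peaks were spread over the gene with more toward its 3′ side. Intron 7 (7081 nt) held 22, 36 and 69 peaks, intron 8 (14109 nt) 39, 39 and 135, and the longest, intron 2 (19725 nt), 19, 13 and 66. Per length, introns 7 and 8 were above intron 2 in each library. Peaks covered 15.9%, 21.9% and 46.1% of the Ptbp2 intron length, and 33 common regions with 1930 nt, 3.21% of the intron, were covered in all 3 libraries. Widths from 86 to 200 nt made up 64.7%, 72.5% and 78.5% of these peaks, and 1, 1 and 5 of them were wider than 200 nt. The other members had at most 1 common intron region each, 97 nt in Ctdsp1 and 14 nt in Rcor1.

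Intron densities of the other genes with enough intron were lower. Rcor1 had 2.96, 2.82 and 12.7 peaks per 10000 nt, Ctdsp2 3.09, 0.617 and 12.3, Actl6a 4.90, 1.63 and 4.36, Ctdspl 1.59, 1.33 and 1.86, and Rest 0.729, 0 and 2.91. All were under the 99th percentile in each library. A same-strand intron peak in all 3 libraries was found in 7 of the 9 genes, the exceptions being Rest and Sox9, against 54.1% of all genes with introns. In coding sequence, 5 of the 9 (Rest, Rcor1, Ptbp1, Ptbp2 and Actl6a) had a peak in all 3 libraries, against 27.1% of all genes.

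**Figure D4:**
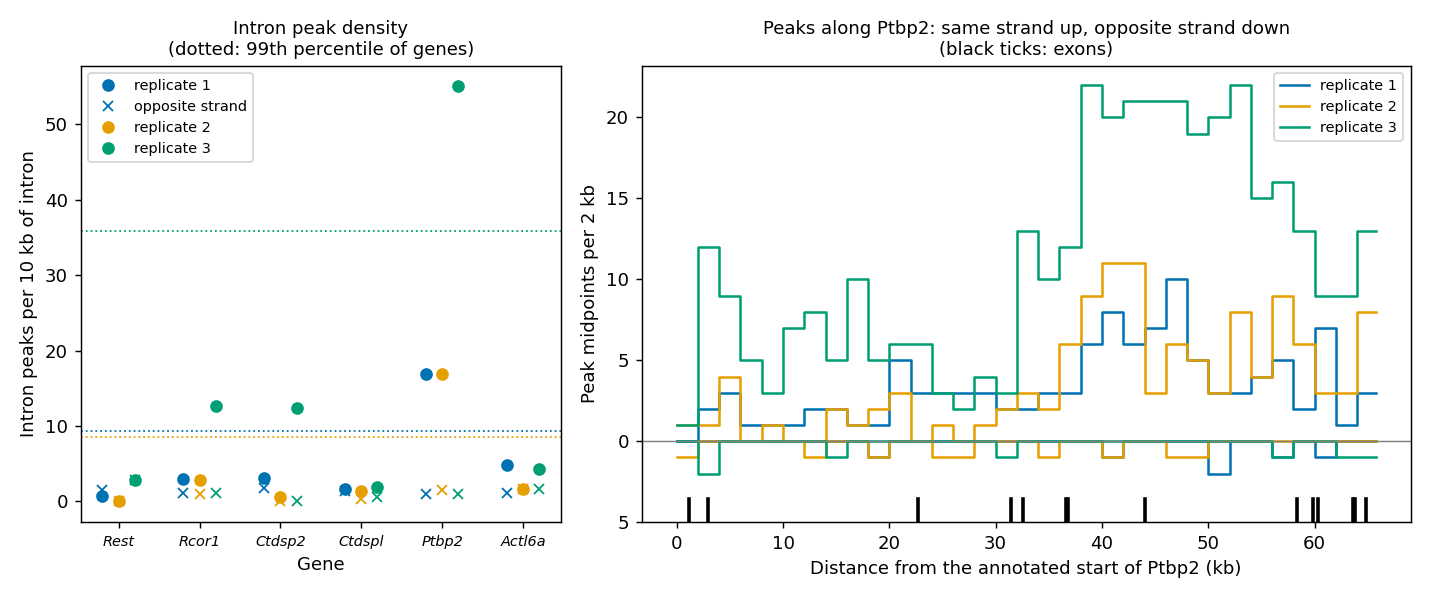
Left, same-strand intron peaks per 10 kb of intron (y axis) for the 6 members with at least 10000 nt of intron, by replicate, with the opposite strand as crosses and the 99th percentile of 12480 genes as dotted lines. Right, peak midpoints per 2 kb along Ptbp2 (x axis, kb from its annotated start), same strand up and opposite strand down; the last bin ends at the gene end. Ptbp2 lies above the dotted line in every replicate, with 17.0, 17.0 and 55.03 peaks.

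Other genes of the same pathways were counted by list, none of them a member. Of 10 Rest corepressors, 4 had a peak on the 3′UTR in every library, and so did 7 of 10 genes of the PTB family and its splicing partners, 7 of 17 BAF subunits, 9 of 15 genes known as miR-124 targets and 5 of 12 known as miR-9 targets. The corresponding share of all genes was the 23.9% given above. The median covered share, averaged over libraries, was 27.4% for the members, 16.2%, 19.1%, 12.5%, 35.9% and 8.12% for the lists in that order, and 3.32% for all genes. Median 3′UTR lengths were 2250 nt for the members, 778, 2648.5, 1262, 1730 and 1631 nt for the lists, and 960.5 nt for all genes. The lists were not compared within classes of 3′UTR length, and the part of length in these differences was not tested.

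Matches to bases 2 to 8 of miR-124-3p under a peak in all 3 libraries were found, among these 5 lists, only in that of miR-124 targets, where 4 of 27 matches were so covered, and 20 of 27 lay under a peak in at least 1 library (1.76% and 31.3% over all genes). They lay in Lamc1 (54 nt after the stop codon), Itgb1 (233 nt), Cebpa (1064 nt) and, as an 8mer, Slc16a1 (296 nt). Lamc1 and Itgb1 encode a laminin chain and an integrin, Cebpa a transcription factor and Slc16a1 a monocarboxylate transporter. The PTB and splicing list had 5 miR-124-3p matches, all of them under a peak in at least 1 library and 0 in all 3, and the corepressor and BAF lists had none. For miR-9-5p, 0 of 28 matches in the list of its targets lay under a peak in all 3 libraries and 13 in at least 1. Over all genes the shares were 1.51% and 30.3%, and 28 matches are too few to show a share as low as 1.51%. The other lists also had 0 miR-9-5p matches covered in all 3 libraries. In at least 1 library, 1 of 2 were covered for the corepressors, 4 of 5 for PTB and splicing, 1 of 4 for BAF and 3 of 4 for miR-124 targets.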

How the data were processed

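Ago2 HITS‐clip was performed on 3 samples of N2A cells. Per the submitters' processing notes, reads were handled with FastQC, cutadapt and STAR on mm10 (GRCm38). Versions, the peak caller and its threshold are not given in the sources used here. Peaks called by the authors in every sample were deposited together, as coordinates with a score. The deposited score has no stated unit, was 60 for 98.9% to 99.6% of the peaks of a library and was not used. No value column per sample beyond these was left over (0 further columns).

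Coordinates were taken as a start that counts from 0 and a stop that counts from 1, with 30 nt of padding assumed at either end of a peak. Gene models were those of GENCODE mouse M21, with the GRCm38.p6 genome. The part a peak belonged to was set by its midpoint on the strand of the gene, where 3′UTR went before coding sequence, 5′UTR, intron and non-coding exon. For each gene the longest 3′UTR among its protein-coding transcripts was used, without the stop codon. A peak met a feature by at least 1 nt, and a site lay under a peak when all its matched bases did. A narrow peak was assigned to a miRNA arm when its central part overlapped the arm by at least 15 nt. Seeds of 14 of the 15 miRNAs or families were read from the RefSeq table of mature sequences. The miR-124-3p motif was entered as a motif, since that table holds no entry for it. Only peaks on the 21 primary nuclear chromosomes were used, which left out 430, 276 and 315.

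All samples are 1 group, so no test between conditions was run and the members' counts stand beside the same counts over all genes. Wilson intervals are at the 95% level and cover the counting of peaks only. The members and lists were chosen with earlier results of these data known. All members were named. Pathway genes were named if a miR-124-3p or miR-9-5p match lay under a peak in all 3 libraries, and up to 5 other genes with the most such matches in common regions, shorter 3′UTRs first. Some genes of these lists and of this rule are not reported here. The intron comparison with its minimum of 10000 nt, the Ptbp2 pair, the identity of the 8mer windows, the other seeds searched in common regions and the 5000 nt past the gene ends were chosen after values were seen. Alternatives were each replicate left out, trimmed peaks, peaks of 86 to 200 nt only, an equal draw of 498071 peaks, the opposite strand, other overlaps, site types and numbers of libraries, and Ptbp2 left out, the last added after the data were seen.

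Coverage and site search were tested on simulated data. Coverage of 200 of 200 simulated 3′UTRs and 160 of 160 common regions were recovered, and 100 of 100 planted matches were found. Computation used statsmodels 0.14.6, pandas 2.3.3, numpy 2.4.6 and scipy 1.17.1 in Python 3.11.15, and matplotlib 3.10.9 for plots.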

Additional observations from a re-analysis of the deposited data

Results flagged for a closer look

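Ptbp2 had 10 same-strand peaks in the 5000 nt past its annotated end, 4, 3 and 3 in replicates 1, 2 and 3, a stretch that no comparison of the genes used. No other annotated gene lies there on that strand, and the nearest peak midpoint was 275 nt past the end. The other 8 genes had 0 to 2 peaks in such a stretch over all libraries together. This stretch was not counted over all genes, so how common 10 such peaks are is unknown.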

How the results depend on the processing

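No paired analysis was possible because all 3 samples belong to 1 group. Of 58 alternatives to the 6 main results, 50 moved them by less than the limit set for a change, 8 moved them further and 0 reversed them. Members whose 3′UTR met a peak in every library numbered 6, 3 with equal draws of peaks and 1 on the opposite strand, and between 6 and 8 with each replicate left out. The mean 3′UTR share of member peaks, 21.6%, was 36.9% without Ptbp2, 9.94% for peaks on the opposite strand and 14.7% to 26% with each replicate left out. The mean covered share, 27.8% ± 16.04 (SD, n = 3), was 13.9% with trimmed peaks, 2.77% on the opposite strand and 23.1% to 37.1% with each replicate left out. The miR-124-3p matches under a peak in all libraries, 0, became 2 when at least 2 libraries were enough, those of Rcor1 and Sox9, and 0 to 2 with each replicate left out, the 2 arising without replicate 1. The miR-9-5p count of 0 became 1, the Rest 7mer-A1, with shorter matches allowed and stayed 0 without each replicate. The Mir26 hairpins with a peak in all libraries numbered 1, 0 on the opposite strand, and 1 without each replicate. Of 72 alternatives to the covered share of single genes, 64 changed it by less than its SD over libraries and 8 by more. For Rest, with 27.4% in the main setting, these were 10.8% with trimmed peaks, 20.4% with peaks of 86 to 200 nt and 18.6% on the opposite strand. The other changes larger than the SD were all on the opposite strand. Where the SD is wide, larger relative changes stay within it: trimming lowered the covered share of every gene but Ctdspl by over 1.5 times, and with peaks of 86 to 200 nt Ctdspl went from 9.03% to 0.876% and Sox9 from 39.6% to 25.01%. With equal draws Ptbp2 went from 42.1% to 25.2% and Ptbp1 from 12.4% to 7.03%. Without replicate 2 Ctdspl was at 3.78% and Actl6a at 26.01%, against 40.1%, and without replicate 3 Ptbp1 was at 6.36% and Ctdsp1 at 0%. On the opposite strand Ctdspl, Ptbp1 and Ctdsp1 were at 1.63%, 0.312% and 0%. The causes were not tested. Trimming was not run for the shares of midpoints, which it does not move, nor the rule of at least 2 libraries for shares, which need no such rule. Read depth is unknown, and replicate 1 gave the lowest 3′UTR coverage of all 9 genes, shared with replicate 2 for Ctdsp1.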

Other observations

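Over all genes, 56 had a miR-124-3p match to bases 2 to 8 in a common region of their 3′UTR, and 45 had a miR-9-5p match there. Outside the lists, genes with 1 such miR-124-3p match and a short 3′UTR included Vim, which encodes the intermediate filament vimentin (342 nt), Ginm1 (530 nt), Nnt, a mitochondrial transhydrogenase (729 nt), and Nudcd2 (804 nt).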
